A study of Coccomyxa subellipsoidea C-169 with 6 samples.

Results

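COCSUDRAFT_45992 is a gene of the unicellular green alga Coccomyxa subellipsoidea C-169, a strain isolated in Antarctica, and the deposited product name for it is CSD-domain-containing protein, CSD standing for cold-shock domain. It is 1 gene of the 9490 listed and was chosen by its count level, the highest in wild type, so its level and rank are given as a description and without a test. The RNA came from stationary phase cultures of C-169 harvested 3 hours before the dark phase, with 3 wild type (WT) libraries and 3 libraries with the genotype Overexpressor CsubMADS1 OX, called OX-labelled here. Per the labels the 3 libraries of a group are biological replicates, but they name neither the promoter of the transgene nor the number of transformed lines behind the OX-labelled cultures.

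The cold-shock domain is a small barrel-shaped fold that binds single-stranded RNA and DNA. In bacteria, small proteins made of this domain accumulate after a drop in temperature and keep RNA from folding on itself, and in animals the Y-box proteins carry the same domain and coat messenger RNA. In the green alga Chlamydomonas reinhardtii, the protein NAB1 joins a cold-shock domain to an RNA recognition motif and represses the translation of mRNAs for light-harvesting antenna proteins. Whether COCSUDRAFT_45992 has any of these roles is not known from the files, and temperature was not a variable of the study.

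Total counts ran from 3771499 to 5336375 a library. Levels are given in CPM, counts scaled to a common library total, after TMM scaling, which lines up the bulk of genes between libraries. In a principal component analysis of the tested genes, OX-labelled replicate 3 lay at 34.9 on component 2 (19.6% of variance) and replicates 1 and 2 at -14.2 and -20.6, and values without it are given where they change a call. The MADS-box gene COCSUDRAFT_67545, the 1 gene with that product name, was at 95.3, 80.2 and 84.9 CPM in WT and at 68.4, 58.9 and 54.8 CPM in the OX-labelled libraries. It was thus not higher there, and all directions below follow the labels. Whether this gene is CsubMADS1, and whether reads of the transgene would be counted at it, is not known from the labels. Its difference between the groups missed the threshold (log2 fold change -0.51, edgeR adjusted p = 0.0535). It passed in 6 of 15 alternative fits, among them the 3 other scalings tried (edgeR adjusted p 0.0294 to 0.0499). Among the fits that it did not pass were limma-voom (adjusted p = 0.0535) and edgeR with the replicate number as a block (adjusted p = 0.0671). Over all 15 the adjusted p ranged from 0.0294 to 0.168.

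COCSUDRAFT_45992 took over 1% of all counted reads in each WT library and less than that in each OX-labelled library. Its counts were 56458, 49475 and 42983 in WT replicates 1, 2 and 3, and 43555, 28217 and 37765 in OX-labelled replicates 1, 2 and 3. As a share of all counts this was 1.14% (95% exact Clopper-Pearson interval 1.13 to 1.15), 1.06% (1.05 to 1.07) and 1.14% (1.13 to 1.15) in WT. In the OX-labelled libraries the shares were 0.816% (0.809 to 0.824), 0.598% (0.591 to 0.605) and 0.978% (0.968 to 0.988). The WT shares lay close together and all OX-labelled shares lay below them, with OX-labelled replicate 2 the lowest of the 6 libraries. These intervals cover counting error within 1 library only and not the spread between cultures. Reads without molecular identifiers are not independent molecules, so the intervals may be too narrow even for that error.

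On the TMM scale the levels were 11349, 10414 and 10863 CPM in the WT libraries and 8539, 6322 and 9490 CPM in the OX-labelled libraries. WT averaged 10875 ± 468 CPM and the OX-labelled group 8117 ± 1625 CPM (SD, n = 3 each). The WT values were close together, the OX-labelled values spread widely, and the groups did not overlap. The WT libraries stood at 222 to 234 times the count level of the median tested gene of the same library, and the OX-labelled libraries at 131 to 191 times. These ratios are of counts and not of counts per length. In RNA from a whole culture, fewer cells with the transcript and less of it per cell cannot be told apart.

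By count the gene ranked first in all 3 WT libraries and in OX-labelled replicate 1, and second in OX-labelled replicates 2 and 3. In WT the gene next below it was COCSUDRAFT_53735, a plastid acyl-ACP desaturase, an enzyme that places the first double bond in fatty acids. COCSUDRAFT_45992 had 1.66, 1.60 and 1.74 times the counts of that gene in WT replicates 1, 2 and 3. In the OX-labelled libraries the highest other gene was COCSUDRAFT_65708, the small chain of Rubisco, the enzyme that fixes carbon dioxide. The ratio of COCSUDRAFT_45992 to the Rubisco small chain was 2.54, 2.32 and 2.44 in WT and 1.15, 0.798 and 0.962 in the OX-labelled libraries. This ratio within a library does not depend on scaling between libraries, and its groups did not overlap. No overlap was also seen for 42.9% of single genes tested, and the share for such ratios was not worked out. Of the pair, the Rubisco small chain passed the test over all genes, at 4473 ± 18.9 CPM in WT and 8399 ± 1299 CPM in the OX-labelled group (SD, n = 3 each; log2 fold change 0.91, SE 0.18, edgeR adjusted p = 0.00382), and COCSUDRAFT_45992 did not.

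**Figure D1:**
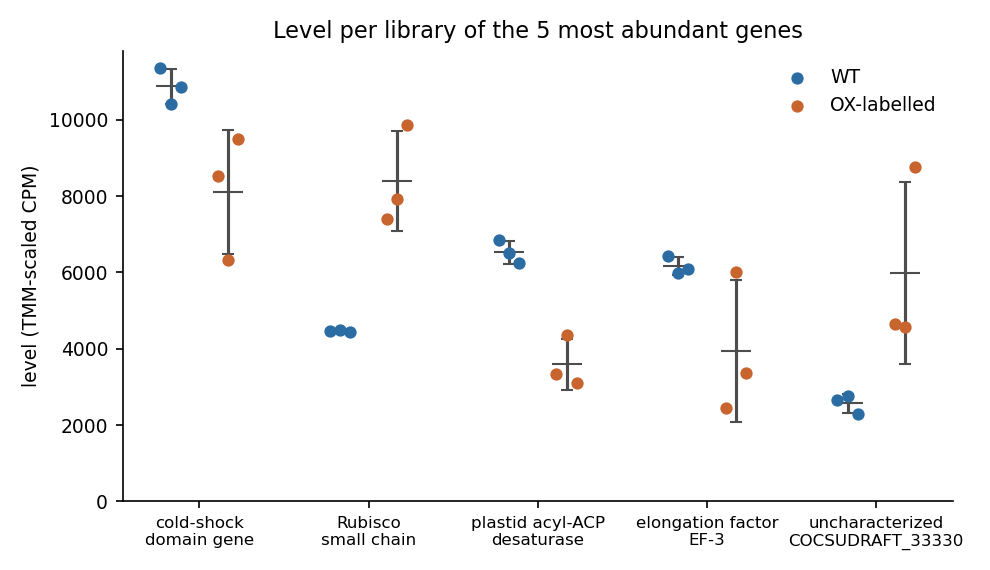
Level in TMM-scaled CPM (linear axis from 0) of the 5 most abundant genes, 1 point a library, with bars for the mean and SD of 3 libraries. The cold-shock domain gene stands above the other 4 in WT, while in the OX-labelled libraries its points (6322 to 9490 CPM) overlap those of the Rubisco small chain (7404 to 9868 CPM).

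The order of mean levels differed between the groups below the first place as well. In WT, COCSUDRAFT_45992 was followed by the desaturase at 6532 ± 297 CPM, the elongation factor EF-3 gene COCSUDRAFT_47721, which acts in translation, at 6171 ± 235 CPM, and the metallo-hydrolase/oxidoreductase COCSUDRAFT_67338 at 6043 ± 206 CPM (SD, n = 3 each). The gap between the cold-shock domain gene and these was many times the spread over libraries, whereas the libraries of the 3 genes below it overlapped in part. In the OX-labelled group the Rubisco small chain came first, COCSUDRAFT_45992 second and after it the uncharacterized gene COCSUDRAFT_33330 at 5991 ± 2392 CPM (SD, n = 3). The ranges of all 3 overlapped there, so their order is within the spread between libraries. Without OX-labelled replicate 2, in which it was lowest, COCSUDRAFT_45992 was first in the OX-labelled mean too. Of the 10 genes with the highest mean in WT, 5 were also among the 10 highest in the OX-labelled group. The 10 genes with the highest level over both groups took 5.21% to 5.32% of all counts in WT and 3.86% to 4.77% in the OX-labelled libraries. COCSUDRAFT_45992 alone made up 20.4% to 21.5% of that sum in WT, and 21.2%, 13.8% and 20.5% of it in OX-labelled replicates 1, 2 and 3.

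**Figure D2:**
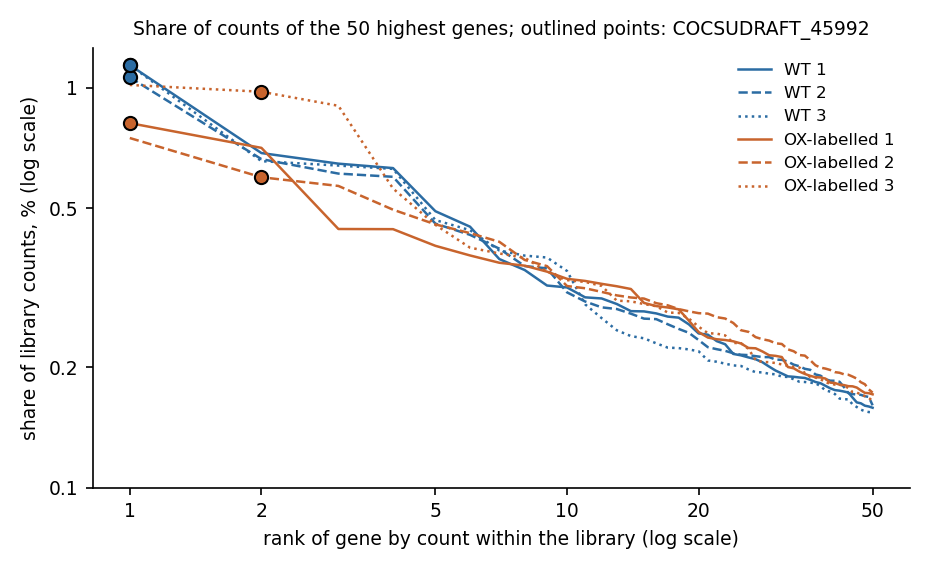
Share of library counts in percent against the rank of the gene by count, for the 50 highest genes of each library (both axes logarithmic), with COCSUDRAFT_45992 outlined. It sits at rank 1 in 4 libraries, with shares of 0.816% to 1.14%, and at rank 2 in OX-labelled replicates 2 and 3.

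Counts grow with transcript length, so a rank by count is not a rank by number of molecules. The 1 length at hand was the annotated gene span with introns (assembly GCF_000258705.1), which was 4030 bases for COCSUDRAFT_45992 against a median of 2694 bases over the 9490 genes and 1610 bases for the Rubisco small chain. Per kilobase of that span, the Rubisco small chain came first in both group means, with 2778 CPM in WT and 5217 CPM in the OX-labelled group. COCSUDRAFT_45992 came second in WT with 2699 CPM per kilobase and at rank 3 in the OX-labelled group with 2014 CPM per kilobase. Library by library its rank on this scale was 1, 2 and 3 in WT replicates 1, 2 and 3 and 5, 8 and 2 in the OX-labelled ones. The uncharacterized gene COCSUDRAFT_52570 reached 2420 CPM per kilobase in the OX-labelled group, above the cold-shock domain gene, and 2186 CPM per kilobase in WT, below it. The gene was thus the most abundant by count in the WT mean, and among the 3 highest in both group means by either measure. The span counts introns, which messenger RNA lacks, and its use was chosen after the data were seen.

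The difference between the groups did not pass the test over all genes. The log2 fold change of COCSUDRAFT_45992, OX-labelled over WT, was -0.42 (SE 0.19, edgeR quasi-likelihood adjusted p = 0.126, unadjusted p = 0.0466). The WT level was 1.34 times the OX-labelled level, with a 95% interval of 1.01 to 1.79, which is not corrected for testing many genes. All 3 OX-labelled libraries were below all 3 WT libraries, as they were for 19.8% of the 8575 genes tested, and 42.9% of genes had no overlap in one or the other direction. Of all genes tested, 24.6% were called in either direction and 8.98% were called lower, and 37.9% had an unadjusted p under 0.05. Because the gene was chosen for a high level, and the deposited files list genes by their count in WT replicate 1, a high WT level is partly built into the choice, which the test does not allow for. The call rested on which libraries were used. Without OX-labelled replicate 3, in which the level was nearest to WT, the fold change was -0.55 and passed (edgeR adjusted p = 0.0244), and without OX-labelled replicate 2 it was -0.27 (edgeR adjusted p = 0.28). Over all 15 alternatives the adjusted p ranged from 0.0244 to 0.28, always with the same sign.

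The libraries of WT lay closer together for this gene than those of the OX-labelled group. Its highest WT library was 1.09 times its lowest, and its highest OX-labelled library was 1.5 times its lowest. The SD of the log2 level was 0.062 in WT and 0.304 in the OX-labelled libraries. Among the 100 most abundant genes the median SD was 0.146 in WT and 0.245 in the OX-labelled libraries, and 75 of the 100 genes had the larger SD in the OX-labelled group. COCSUDRAFT_45992 stood 16th from the lowest of these in WT and 59th in the OX-labelled group. Counting error, with reads taken as independent, was at most 0.595% of the level in any library, far below the spread between OX-labelled libraries. The difference in spread was not tested, as 3 libraries a group give little hold on it.

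**Figure D3:**
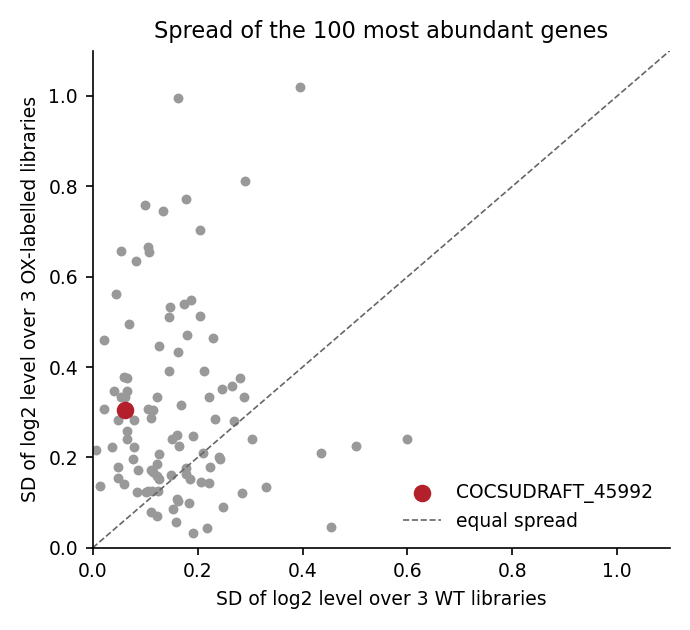
SD of the log2 level over 3 WT libraries against that over 3 OX-labelled libraries for the 100 most abundant genes, each 1 grey point, with the line of equal spread. COCSUDRAFT_45992 (0.062 and 0.304) lies above the line, as do 75 of the 100 genes in all.

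The second cold-shock domain gene of the files, COCSUDRAFT_39240, was far less abundant and rose. It was at 28.1, 33.3 and 35.4 CPM in WT and 105, 66.5 and 54.5 CPM in the OX-labelled libraries, so that the groups did not overlap and OX-labelled replicate 1 was the highest. The log2 fold change was 1.23 (SE 0.25), past the threshold with an edgeR adjusted p = 0.00437. The call held in each of the 15 alternatives, with fold changes from 0.91 to 1.41 and adjusted p from 9.74e-05 to 0.0359. Whether it differed from COCSUDRAFT_45992 in its response was not tested. Both have the same deposited product name, and protein sequences were not analysed here, so how alike they are and which further domains they carry is not given.

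The annotated neighbours of COCSUDRAFT_45992 had levels of 20.8 to 86.4 CPM over both groups, where the median over all tested genes was 49.4 CPM. In assembly GCF_000258705.1 none of the nearest 2 genes on each side overlaps it. COCSUDRAFT_52270, before it, was at 90.4 ± 1.52 CPM in WT and 82.4 ± 10.04 CPM in the OX-labelled group. COCSUDRAFT_39358, after it, with the product name of the enzyme that attaches myristate to proteins, was at 42.1 ± 7.03 and 43.9 ± 2.99 CPM (SD, n = 3 each). COCSUDRAFT_45992 had 110 to 457 times the count level of these 4 genes. Of them, COCSUDRAFT_32107 was called higher, from 16.3 to 25.3 CPM (edgeR adjusted p = 0.0467), a call lost in 11 of the 15 alternatives, and the other 3 did not pass.

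The 5 genes most like COCSUDRAFT_45992 over the 6 libraries were taken by the root mean square difference of log2 levels, each centred on its own mean, among 4249 genes with a level of at least 50 CPM. The nearest was COCSUDRAFT_24081, a transporter of the major facilitator superfamily, with a difference of 0.046, where the median over those genes was 0.387. Its levels were 70.4, 65.9 and 65.2 CPM in WT and 50.4, 40.3 and 61.1 CPM in the OX-labelled libraries. The cullin gene COCSUDRAFT_54829, cullins being scaffolds of ubiquitin ligases, followed at 0.072, the lipase gene COCSUDRAFT_64001 at 0.077 and the uncharacterized gene COCSUDRAFT_44563 at 0.078. COCSUDRAFT_25314, a subunit of mitochondrial NADH:ubiquinone oxidoreductase, was at 0.083. All 5 had their lowest level in OX-labelled replicate 2, as COCSUDRAFT_45992 did. They were picked for likeness, and the lipase (log2 fold change -0.57, edgeR adjusted p = 0.0481) and NADH oxidoreductase genes (-0.55, edgeR adjusted p = 0.0492) were called lower with all libraries while the other 3 were not. Both calls were lost when any 1 library other than OX-labelled replicate 3 was left out. Without OX-labelled replicate 3, the transporter (-0.57, edgeR adjusted p = 0.0274) and cullin genes (-0.54, edgeR adjusted p = 0.0265) were called lower as well.

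**Figure D4:**
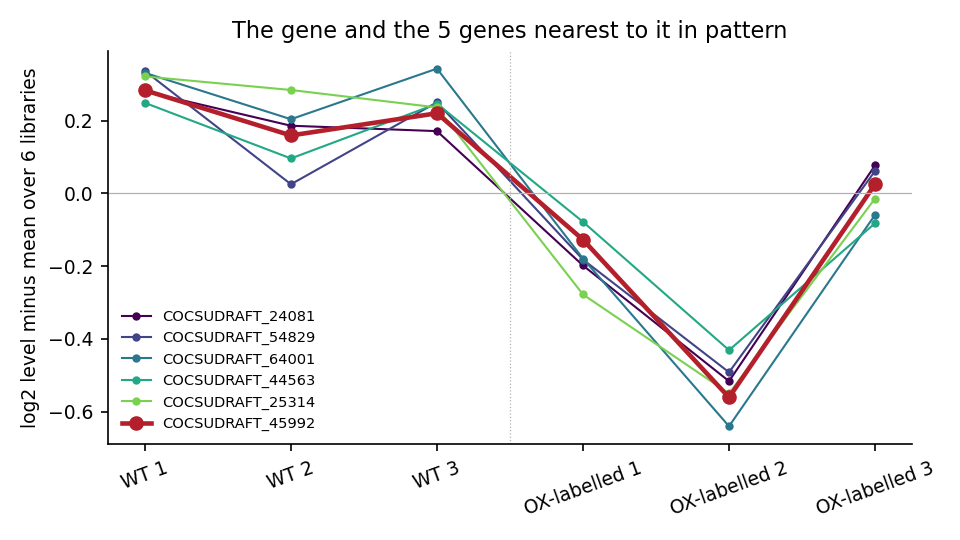
Log2 level minus its mean over the 6 libraries for COCSUDRAFT_45992 (thick line) and the 5 genes nearest to it; lines join the points of a gene and carry no order. COCSUDRAFT_45992 runs from 0.28 in WT replicate 1 to -0.56 in OX-labelled replicate 2, and the other 5 follow it.

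Other tested genes taken by RNA-binding names had a median level of 58.8 CPM over both groups, against 49.4 CPM over all tested genes. That COCSUDRAFT_45992 stood above them follows from its choice by level. Of 65 listed genes with names such as RNA recognition motif, KH domain or zinc knuckle, 62 were tested, and 5 were higher and 9 lower and 48 did not pass, with a median log2 fold change of -0.25 (all genes: 0.00). Of those tested, 22.6% were called, near the 24.6% over all genes. By direction, 8.06% were higher and 14.5% lower (all genes: 15.6% and 8.98%). The highest of the list, COCSUDRAFT_54020, had a level of 609 CPM over both groups. COCSUDRAFT_62092, with an RRM_DME domain name, rose from 77.6 ± 5.08 to 164 ± 15.1 CPM (SD, n = 3; edgeR adjusted p = 0.00112). The zinc knuckle gene COCSUDRAFT_56597 rose from 7.74 to 21.8 CPM (edgeR adjusted p = 0.00209). The name search also caught 5 genes without an RNA-binding name, 4 of them tested, namely 3 named for the FAS1 domain, a cell adhesion fold, 1 for a Peptidase S1 domain and 1 for a HAP2-GCS1 domain. The FAS1 gene COCSUDRAFT_33294 rose with the lowest p of the list. Of the 58 tested without these strays, 4 were higher, 9 lower and 45 did not pass (median -0.26). Without any 1 of the WT libraries or OX-labelled replicate 1, 2 of the list were lower, and 3 were higher without a WT library. Over all 15 alternatives the lower members of the list ranged from 2 to 13 and the higher ones from 3 to 5.

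RNA helicases unwind RNA, and in bacteria act beside cold-shock proteins. Of 31 tested, 2 were higher and 6 lower, and 23 did not pass (median -0.36). The lower ones numbered 12 without OX-labelled replicate 3, 2 without OX-labelled replicate 1, and 1, 4 and 2 without WT replicates 1, 2 and 3. COCSUDRAFT_22852, named RNA helicase 2, rose from 200 ± 12.9 to 405 ± 33.5 CPM (SD, n = 3). COCSUDRAFT_28415, a DEAD-domain gene, was called lower (99.0 to 42.2 CPM). The RNA helicase COCSUDRAFT_30714 held 530, 418 and 405 CPM in WT and 113, 201 and 298 CPM in OX-labelled replicates 1, 2 and 3 and was called lower too (edgeR adjusted p = 0.014, but 0.0631 without WT replicate 1). Of 33 tested genes with initiation factor names, 0 were higher, 6 lower and 27 did not pass (median -0.39). They include 5 genes named for transcription initiation and 1 methylthioribose-1-phosphate isomerase. Of the 27 without these, which are named for translation initiation, 0 were higher, 6 lower and 21 did not pass (median -0.46). Over all 33, the lower ones numbered 12 without OX-labelled replicate 3, 2 without OX-labelled replicate 1, and 1, 2 and 3 without WT replicates 1, 2 and 3. Among them COCSUDRAFT_83587, for subunit K of initiation factor eIF3, fell from 93.2 ± 11.0 to 49.2 ± 2.33 CPM (SD, n = 3; edgeR adjusted p = 0.00338). COCSUDRAFT_35682, for subunit F of the same factor, fell from 177 to 109 CPM, a call lost without WT replicate 1 or 2 (edgeR adjusted p = 0.0703 and 0.0645). Across all genes 15.6% were called higher and 8.98% lower.

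Of 13 tested genes with names of ribonucleases or RNA turnover, 3 (23.1%, all genes 15.6%) were higher, 1 (7.69%, all genes 8.98%) lower and 9 did not pass (median -0.07). They include genes named Ribonuclease H-like protein, a name that does not show a part in RNA turnover. The lower gene, COCSUDRAFT_13737, is named so. Over all 13, there were 4 higher and 0 lower without OX-labelled replicate 3, and 1 higher and 0 lower without any WT library or OX-labelled replicate 1. The Ribonuclease T2 gene COCSUDRAFT_53720, an RNA-degrading enzyme of a class that is mostly secreted or held in vacuoles, rose from 14.3 ± 5.20 to 59.1 ± 13.1 CPM (SD, n = 3; edgeR adjusted p = 0.000468). The Ribonuclease III gene COCSUDRAFT_52802, which cuts double-stranded RNA, rose from 33.0 to 51.9 CPM (edgeR adjusted p = 0.0325), a call made without OX-labelled replicate 3 but in none of the other fits that left out 1 library.

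Antenna protein genes, whose mRNAs are targets of NAB1 in Chlamydomonas, were higher in nearly all cases. Of 25 light-harvesting genes tested, 23 (92%, all genes 15.6%) were higher and 0 (all genes 8.98%) lower, and 2 did not pass. The median log2 fold change of these 25 was 1.92. The most abundant, COCSUDRAFT_65904, went from 606, 836 and 736 CPM in WT to 4213, 3337 and 2840 CPM in the OX-labelled libraries. Within the OX-labelled group, its highest level was in replicate 1, whereas COCSUDRAFT_45992 was highest in replicate 3. A relation between the antenna genes and COCSUDRAFT_45992 was not tested, and RNA counts do not measure translation. The antenna genes resemble each other in sequence, and the handling of reads shared between them is not stated.

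Desaturase genes had no common direction. They came from a name search for cold and desiccation proteins, whose 15 matches were all desaturases and none named for cold or drying. Of 14 tested, 2 (14.3%, all genes 15.6%) were higher and 3 (21.4%, all genes 8.98%) lower, and 9 did not pass (median 0.04). Without any 1 of the WT libraries 1 was higher and 1 lower, with 2 and 1 without OX-labelled replicate 1 and 1 and 3 without OX-labelled replicate 3. Without 3 desaturases of carotenoids or of cytochrome P450 type there was 1 higher and there were 2 lower. Fatty acid desaturases add double bonds to fatty acids, which keeps membranes fluid in the cold. COCSUDRAFT_53735, the plastid desaturase second to the cold-shock domain gene in WT, fell from 6532 ± 297 to 3601 ± 669 CPM (SD, n = 3; log2 fold change -0.86, edgeR adjusted p = 0.00627). The omega-3 desaturase COCSUDRAFT_67054 fell from 596 to 360 CPM (edgeR adjusted p = 0.0252), a call lost without any WT library or OX-labelled replicate 1 (edgeR adjusted p 0.067 to 0.0721). The fatty acid desaturase COCSUDRAFT_47044 rose from 2.62 ± 1.17 to 39.1 ± 3.79 CPM (SD, n = 3; log2 fold change 3.86, edgeR adjusted p = 1.46e-05). Its counts in WT replicates 1, 2 and 3 were only 16, 16 and 5, and it passed the filter on low counts through its OX-labelled libraries. The size of this rise thus rests on few WT reads.

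**Figure D5:**
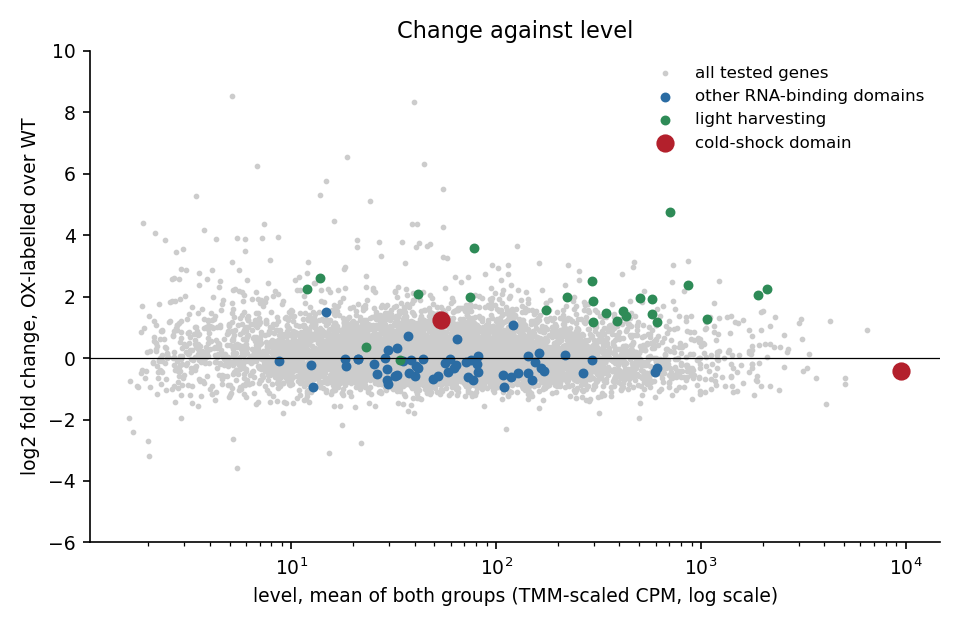
Log2 fold change, OX-labelled over WT, against level (mean of both groups in TMM-scaled CPM, log axis) for the 8575 tested genes (grey), with the cold-shock domain, light-harvesting and other RNA-binding genes in colour (the last without the strays of the name search). COCSUDRAFT_45992 is the rightmost point, at -0.42, and the other cold-shock domain gene lies at 1.23.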

How the data were processed

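Each deposited file gives the authors' raw read counts of 1 library for 9490 genes, all with at least 1 count in some library. FastQC, Trim Galore, HISAT and HTSeq are named without versions in the submitters' processing notes, and per the labels' protocols the library kit was directional. No source used here gives the genome build or the strand setting, so antisense overlap cannot be told apart. All 9490 locus tags matched assembly GCF_000258705.1, used for spans and neighbours.

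After filterByExpr (8575 genes kept) and TMM scaling, WT and OX-labelled libraries were compared by edgeR 4.0.16 in R 4.3.3 (robust quasi-likelihood, two-sided). P-values were adjusted over all tested genes by Benjamini-Hochberg, with 0.05 as threshold. Standard errors were derived from the fold change and the F statistic. Alternatives used DESeq2 1.42.0 and limma 3.58.1. The fits were also run on simulated data, with fewer changed genes than were called here and the same spread in both groups. That setting differs from these data, so no conclusion is drawn from it. No pair of libraries agreed within sampling noise (lowest chi-square per degree of freedom 6.97). The p-values weigh the group difference against the spread between libraries of a group, which the labels call biological replicates. Whether this takes in spread between transformed lines is not known, as the number of lines is not given.

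The gene, the lists (patterns on product names) and the tests were chosen with earlier results of these data known. Named genes were the cold-shock domain genes, the 10 highest by level, the 5 nearest in pattern, 2 neighbours on each side, the MADS-box gene and up to 3 members of each list by lowest p, of which part are printed. COCSUDRAFT_54020 was named after its value was seen. Genes with a similar protein were part of the rule, but protein sequences were not used here.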

Additional observations from a re-analysis of the deposited data

How the results depend on the processing

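The fold change of COCSUDRAFT_45992 kept its sign under all alternatives. Its adjusted p stayed above 0.05, so that the gene was not called, in all of them except the fit without OX-labelled replicate 3. The fold change ranged from -0.55 to -0.27 when 1 library was left out. The replicate number as a block gave -0.44 (edgeR adjusted p = 0.132) and 2099 calls in place of 2107, and ended the calls of COCSUDRAFT_25314 (edgeR adjusted p = 0.0514) and COCSUDRAFT_32107 (0.0664), while COCSUDRAFT_47721 gained one (0.0461 at -0.75). Same-numbered libraries did not deviate together (correlations -0.16, 0.15 and 0.06), and 2 of the 6 libraries correlated best with their own number. No pairing by number was seen and the labels state none, but 3 libraries a group are too few to exclude it. Leaving out 1 library gave 737 to 1626 higher and 313 to 1232 lower genes over all genes, a rank of 1 to 2 in the OX-labelled mean, a ratio to the next gene over both groups of 1.41 to 1.52 (1.48 with all), and levels of 10639 to 11106 CPM in WT and 7430 to 9014 CPM in the OX-labelled group. Per kilobase of gene span the rank was 2 in WT and 3 in the OX-labelled group and the ratio to the highest other gene was 0.59. Scaling by library size only gave 1140 higher and 995 lower genes, with higher genes at 53.4% of calls in place of 63.5%. Log2 fold changes near 0 changed sign for 3 genes. COCSUDRAFT_39358 was at -0.010 with library size only and between -0.066 and 0.17 with 1 library left out, COCSUDRAFT_52570 between -0.15 and 0.47, and COCSUDRAFT_64386 between -0.016 and 0.35. The lowest edgeR adjusted p of COCSUDRAFT_52570 among these fits was 0.0427, past the threshold. Over all 15 alternatives the lower members ranged from 1 to 12 for RNA helicases and for initiation factor names, from 2 to 13 for other RNA-binding genes, and the higher members from 22 to 23 for light harvesting. Counts per coding kilobase were not run, as no protein table was used here. Depth did not limit the values of COCSUDRAFT_45992.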
